A study of Homo sapiens with 12 samples.

Results

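The regions described here are 28447 peaks of N6-methyladenosine (m6A) in Kasumi-1 cells that were annotated to a 3' UTR and shared between cells with WTAP silenced and control cells. They were selected on the authors' own peak calls. A peak was taken when its annotation read 3' UTR and its exonic blocks shared at least 1 base with the exonic blocks of any peak in the list of the other condition, with strand ignored. This gave 14246 of 35851 peaks in the shWTAP list and 14201 of 35341 in the control list, or 28447 of 71192 peaks in all. They are called shared 3' UTR peaks below, and the overlap, the enrichment and the p-value that chose them are given as a description with no test.

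m6A is a methyl mark that the METTL3 and METTL14 enzyme pair places on mRNA in the nucleus, and WTAP is the subunit that brings this pair to its targets. The mark gathers near stop codons and along 3' UTRs, where reader proteins of the YTH and IGF2BP families bind it and change how long the mRNA lasts and how well it is translated. In methylated RNA immunoprecipitation (MeRIP), an antibody pulls down fragments that carry the mark, and a peak is a stretch where the pulled-down RNA (IP) exceeds the starting RNA (input).

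Kasumi-1 is a line from an acute myeloid leukaemia with the t(8;21) translocation. The shWTAP group carried a short hairpin RNA against WTAP from a lentiviral vector and the control group a scramble control hairpin, on a background labelled WT, and both were selected with puromycin at 2 µg/ml, begun 48 h after delivery and kept for at least 24 h. Each group had 3 IP and 3 input libraries, described by the submitters as biological replicates. The deposited peaks are 1 list per condition, so a peak has no replicate and no test between the lists was possible, while the FPKM table holds the 6 input libraries. Of 12 markers of the Kasumi-1 myeloblast, 11 stood at 1 FPKM or more, with sums of 2491 to 2539 FPKM in the shWTAP libraries and 2280 to 2334 FPKM in the control libraries. No listed erythroid, monocyte, fibroblast or endothelial marker reached 1 FPKM, whereas CD3D of T cells, CD79A and PAX5 of B cells and EPCAM of epithelium did. Depth is unknown in FPKM, and the libraries listed 11216 to 11392 genes at 1 FPKM or more. Mitochondrial mRNA made up 0.631% of FPKM in shWTAP 1 and 0.634% in control 3, against 0.300% to 0.333% in the other 4 libraries. Across the 11383 tested genes, shWTAP 1 correlated with the control libraries at r = 0.981 to 0.986 and with shWTAP 2 and shWTAP 3 at 0.975 and 0.978, so by this measure it stood nearer to the control libraries than to its own group. The counts of called carriers, in all and by gene list, are therefore given with and without it. WTAP mRNA was 6.97, 6.48 and 5.69 FPKM in the shWTAP libraries and 11.5, 11.2 and 11.7 FPKM in the control libraries (log2 change -0.76, limma adjusted p = 0.00663). The fold enrichment of a peak is the authors' ratio of IP over input and is used only within its own list.

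Most 3' UTR peaks were shared, and by nearly the same proportion in both lists. Of 16587 peaks annotated 3' UTR in the shWTAP list, 14246 overlapped a control peak, or 85.9% (95% Wilson interval 85.3 to 86.4%). Of 16537 in the control list, 14201 did, again 85.9% (95% Wilson interval 85.3 to 86.4%). These intervals cover counting error over peaks only. The overlapping proportion was 84.1% and 80.6% among 5' UTR peaks of the shWTAP and control lists, and 78.1% and 79.2% among exon peaks. Shared 3' UTR peaks lay on every autosome and on X, where 83.8% of 427 shWTAP and 82.9% of 422 control 3' UTR peaks were shared. The lowest share of an autosome in the shWTAP list was 80.9%, on chromosome 15, where the control list had 83.9%.

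Shared 3' UTR peaks were longer and more enriched than the 3' UTR peaks without a counterpart in the same list. Their median fold enrichment was 6.77 in the shWTAP list, against 3.47 for its 2341 unshared 3' UTR peaks. In the control list the medians were 6.77 for shared and 3.76 for its 2336 unshared 3' UTR peaks. The middle 50% of shared peaks ran from 3.43 to 13.0 in the shWTAP list and from 3.40 to 12.7 in the control list, and a fold enrichment of at least 10 was reached by 35.0% and 34.5% of them. Their exonic length had a median of 539 bases in the shWTAP list and 599 bases in the control list, against 151 and 180 bases for unshared 3' UTR peaks. A false discovery rate of at most 0.05 was met by 96.2% of shared and 68.3% of unshared 3' UTR peaks of the shWTAP list, and by 94.9% and 60.6% of those of the control list. Length and enrichment are not independent of the overlap rule, so none of these differences was tested.

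**Figure D1:**
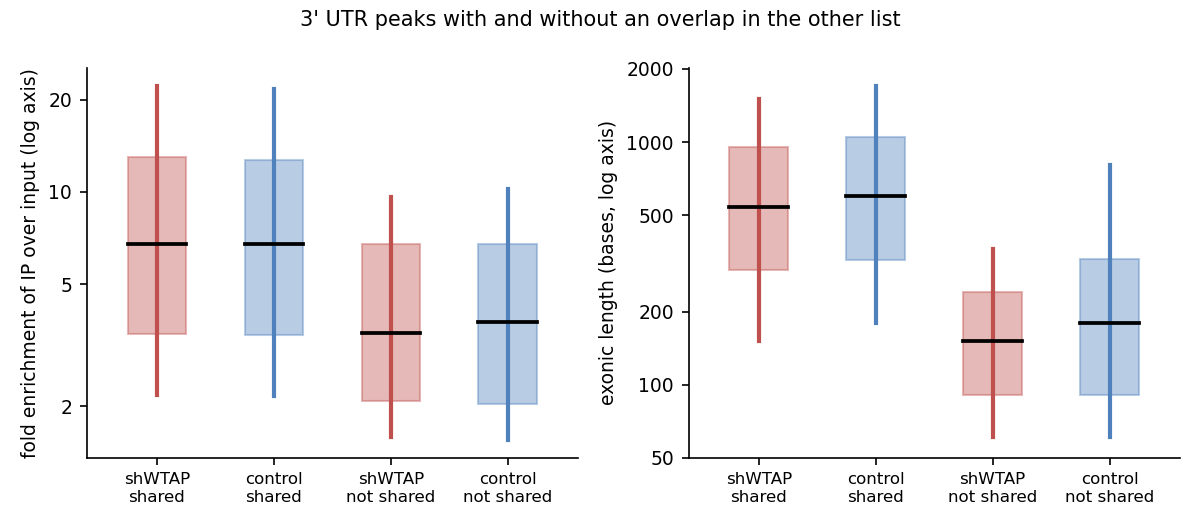
Fold enrichment (left, ratio of IP over input) and exonic length (right, bases) of 3' UTR peaks with and without an overlap in the other list, both on log axes. Black lines are medians, boxes the middle 50% and lines the 10th to 90th percentiles. Shared peaks have a median enrichment of 6.77 in both lists, above 3.47 (shWTAP) and 3.76 (control) for unshared ones.

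The enrichment values were not continuous. Among shared peaks of the shWTAP list 236 had a fold enrichment of exactly 6.75 and 199 had 8.68, and among those of the control list 269 had 6.77 and 245 had 7.9. Peaks with equal values have no order within their list.

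Where the lists shared a 3' UTR peak, they usually placed it in nearly the same position. In the shWTAP list 94.3% of shared 3' UTR peaks had at least 50% of their exonic bases covered by control peaks, and 48.3% were covered entirely. In the control list the shares were 89.8% and 40.9%. The best counterpart was itself annotated 3' UTR for 97.5% of the shWTAP peaks and 96.3% of the control peaks, and it was assigned to the same gene for 94.3% and 94.6%. A single counterpart stood opposite 72.3% of the shWTAP and 70.4% of the control peaks, while 6.18% and 6.56% overlapped 3 or more.

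In 8494 cases a shWTAP and a control 3' UTR peak overlapped only each other. Their common bases made up a median of 85.7% of their joined length, and 1010 of these pairs (11.9%) had both edges in common. Another 43.3% had 1 edge in common and 44.8% had none. For the 4625 pairs of 1 block each, the midpoints lay a median of 30.0 bases apart, and 86.3% lay within 100 bases. The shWTAP peak was the longer in 38.0% of the 8494 pairs, the control peak in 46.1%, and 15.9% were of equal length. With 1 list per condition this lean in length has no replicate check.

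At the edge of the rule stood 101 shWTAP and 98 control peaks that shared exactly 1 base. Only 4 shWTAP and 5 control peaks shared 2 bases. In UBE2J2, a ubiquitin-conjugating enzyme, the shWTAP peak at chr1:1254297-1254357 and the control peak at chr1:1254357-1254417 met at 1 base. In CCDC28B, the shWTAP peak at chr1:32198135-32198285 and the control peak at chr1:32198076-32198135 did the same, although both lay inside TXLNA. Peaks sharing 1 base had a median fold enrichment of 2.60 in the shWTAP list and 2.82 in the control list. Just outside the rule, a shWTAP peak assigned to ZFHX2 lay 2 bases from a control peak, and a control peak assigned to SPATA2L lay 2 bases from a shWTAP peak. Coordinates are 1-based, 1 above the starts in the deposited lists. The build is not named in the sources used here, but 99.9% of 20153 matched gene symbols in the FPKM table overlapped the RefSeq gene of that symbol on GRCh38.p14.

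The label of a 3' UTR was checked against the place of each peak in its gene. Of the shared 3' UTR peaks, 10319 of the shWTAP list (72.4%) and 10312 of the control list (72.6%) lay inside the span of the gene they were assigned to. Another 26.8% and 26.5% were not placed inside the assigned gene but lay inside a different gene of the FPKM table. The assigned gene was in that table for 93.3% and 93.2% of shared 3' UTR peaks, and without it no span could be checked. A peak that ran past the edge of its gene also counted as not inside. Among the peaks inside their gene, the midpoint fell in the last 10% of the gene span for 47.1% in the shWTAP list and 45.8% in the control list. For overlapping exon peaks the same share was 12.9% and 12.6%, and for overlapping 5' UTR peaks 0.697% and 0.740%. The 3' edge stood within 10 bases of the annotated gene end for 20.6% of the shWTAP and 20.2% of the control peaks.

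Not every shared 3' UTR peak sat near the end of its gene. The midpoint lay in the first 50% of the gene span for 19.2% of the shWTAP and 20.8% of the control peaks inside their gene. Peaks that spanned at least 80% of their gene numbered 349 in the shWTAP list and 501 in the control list, and these had median fold enrichments of 16.5 and 15.8. Peaks in the last 10% of the span had a median fold enrichment of 5.93 (shWTAP) and 5.66 (control), against 7.90 in each list for those elsewhere in the gene. A 3' UTR label can come from any transcript of a gene, including one that ends early, and transcript models were not used here.

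**Figure D2:**
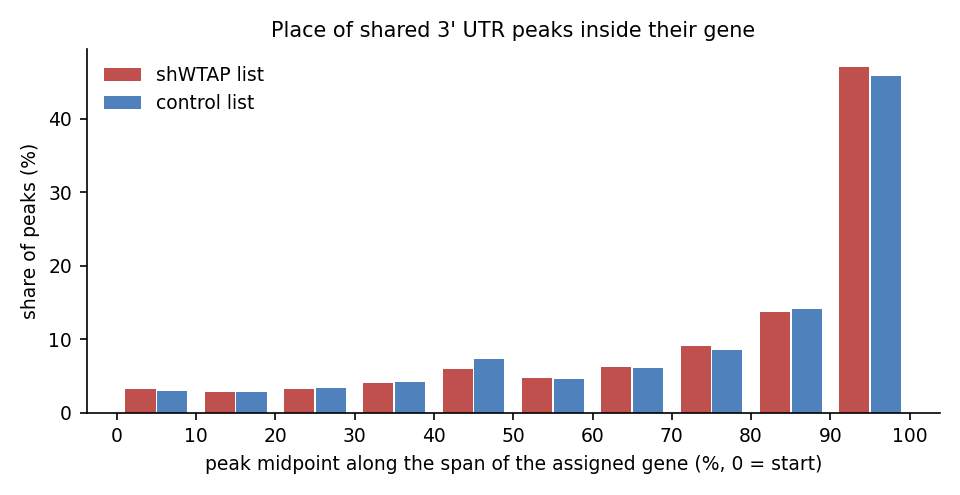
Share of shared 3' UTR peaks (vertical axis, %) by the place of their midpoint along the span of the assigned gene (horizontal axis, %, from gene start to gene end), for the 10319 shWTAP and 10312 control peaks inside that gene. The last bin holds 47.1% of the shWTAP and 45.8% of the control peaks.

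Of the genes with the 10 highest enrichments in each list, ERF, MIR6836 and CLTCL1 stood in both. ERF, an ETS-family transcriptional repressor, carried a peak at chr19:42247569-42248948 with a fold enrichment of 346 in the shWTAP list and one at chr19:42247569-42249368 with 210 in the control list. Both had their 3' edge at the annotated end of the gene. FRAT1, a regulator of GSK3 in Wnt signalling, had shared peaks of 317 and 271 in the shWTAP list that overlapped each other, and 17.8% of shared 3' UTR peaks in each list overlapped another of the same list. ZBTB5, a zinc finger transcription factor, had 94.9 as its highest value in the shWTAP list and 319, the highest of that list, in the control list. HEXIM1, an inhibitor of the elongation factor P-TEFb, had 215 in the shWTAP list and 70.9 in the control list. SIX5, a homeobox transcription factor, had 291 in the control list. Each of these genes was picked for a high value in a list, so a lower value in the other list follows in part from the choice. The values are not compared between the lists, and no replicate bears on them.

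Some of the top peaks carried the name of a neighbour. The shWTAP peak of fold enrichment 423 at chr7:2251770-2253806 and its control counterpart of 188 at chr7:2251830-2253477 were assigned to the microRNA gene MIR6836 and lay inside SNX8. A peak of 259 in the shWTAP list and 192 in the control list, at chr22:19330698-19351394 in both, was assigned to CLTCL1, a clathrin heavy chain gene, and lay inside HIRA, a histone chaperone gene. A shWTAP peak of 203 assigned to LINC00334 lay inside ADARB1, an RNA-editing enzyme gene. Among carrier genes with a RefSeq symbol, 132 of 7554 were microRNA genes.

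A gene was called a carrier when shared 3' UTR peaks of both lists were assigned to it. There were 8622 carriers, of which 6613 held such a peak of both lists inside their own span. In the shWTAP list 5420 carriers had 1 shared 3' UTR peak and 440 had 4 or more, and in the control list the numbers were 5439 and 425. The most peaks were assigned to PCDHGC3 of the protocadherin gamma cluster, with 23 in the shWTAP list and 24 in the control list. NRDE2, a nuclear RNA processing factor, had 11 and 14, TCP10L had 12 and 9, and the cell junction gene CTNND1 had 8 in each list. Genes of the protocadherin cluster share exons, so their peaks cannot be split between them.

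The writers of m6A carried shared 3' UTR peaks in 8 of 11 tested genes, beside 48.8% of all 11383 tested genes. WTAP, the catalytic subunit METTL3 and ZCCHC4, which methylates ribosomal RNA, were not among them. WTAP and METTL3 each had 1 peak per list, annotated 5' UTR, and ZCCHC4 had 1 such peak in the shWTAP list. METTL14, the partner of METTL3, carried a peak of 1650 exonic bases and fold enrichment 7.85 at chr4:118703971-118711355 in the shWTAP list. Its control counterpart had 1591 bases and 10.8 at chr4:118704000-118711325. Their 3' edges lay 4078 (shWTAP) and 4108 bases (control) before the gene end. RBM15, an adaptor that brings the complex to its targets, had a peak with the same edges in both lists, chr1:110338506-110342397, with a fold enrichment of 110 in the shWTAP list and 25.9 in the control list. The midpoint of this peak lay 23.8% along the gene, with its 3' edge 4284 bases before the gene end. The scaffold VIRMA carried a peak at chr8:94488497-94488856 in both lists, with 6.06 in the shWTAP list and 7.17 in the control list. PCIF1, which methylates the cap-adjacent adenosine, also had 1 peak with the same edges in both lists, at 12.5 in the shWTAP list and 11.9 in the control list. The enrichments come from separate lists and are set side by side, not compared.

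Among erasers and readers 10 of 17 tested genes were carriers. YTHDF1, a reader, carried a peak of 1619 exonic bases in the shWTAP list and 1589 in the control list. FTO and YTHDC1 were not carriers. The demethylase ALKBH5 was a carrier by assignment alone, since its peaks in both lists lay in MYO15A and not in ALKBH5.

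KDM4B, a histone lysine demethylase, had 6 shared 3' UTR peaks in the shWTAP list and 5 in the control list. The 1 nearest the gene end stood at chr19:5151380-5151829 with a fold enrichment of 3.86 in the shWTAP list, 1769 bases from the end, and at chr19:5150406-5151859 with 7.32 in the control list. A further peak assigned to KDM4B, with 18.6 in the shWTAP list, lay in UHRF1, as did its control counterpart. MYC and HIF1A were not carriers. MYC had 4 peaks annotated 5' UTR in the shWTAP list and 3 in the control list, and 1 exon peak in each. The shWTAP list also held 1 unshared 3' UTR peak assigned to MYC. HIF1A had 1 peak annotated 5' UTR and 1 annotated exon in each list.

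Of 17 tested transcripts known from the literature for m6A control in acute myeloid leukaemia, 9 were carriers. FOXO3, a transcription factor of the forkhead family, had 3 shared peaks in each list, 1 of them at chr6:108663456-108680610 in both lists with 22.5 (shWTAP) and 12.5 (control). ITGA4, an integrin subunit, had the same edges in both lists, chr2:181534883-181535768, with 4.00 and 3.43. BCL2, the apoptosis inhibitor, is described here after its values were seen, because of where its peaks lie. Its strongest shared peak in the shWTAP list, at chr18:63317254-63320098 with a fold enrichment of 51.2, lay 0.738% along the gene, close to the gene start. The control counterpart, chr18:63317254-63320128, had 69.6 and lay 0.730% along the gene. Another shared BCL2 peak stood at chr18:63126758-63313962 with 17.0 (shWTAP) and at chr18:63126729-63313962 with 20.8 (control). Its 3' edge lay 3412 (shWTAP) and 3383 bases (control) before the gene end.

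The haematopoietic transcription factors had the highest proportion of carriers among the 12 gene lists, 30 of 39 tested genes (76.9%). CEBPE, a factor of late granulocyte differentiation, carried a peak at chr14:23117304-23119347 in both lists with 60.7 (shWTAP) and 45.6 (control). CEBPA, the master factor of granulocyte commitment, had 57.9 in the shWTAP list at chr19:33300950-33302534 and 88.3 in the control list at chr19:33300801-33302534. A smaller control peak in CEBPA counted as shared by 3 bases. The writers followed with 8 of 11 (72.7%), chromatin regulators with 44 of 61 (72.1%), and immediate early and MAPK feedback genes with 17 of 24 (70.8%). The lowest proportions were in the respiratory chain, 31 of 81 (38.3%), and in cytosolic ribosomal proteins, 20 of 81 (24.7%). When the peak had to lie inside the gene, the extremes were 74.4% of haematopoietic factors and 22.2% of ribosomal proteins, beside 5122 of all 11383 tested genes. The lists differ in level: the tested ribosomal protein genes had a median of 225.6 FPKM and the haematopoietic factors 13.5 FPKM.

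**Figure D3:**
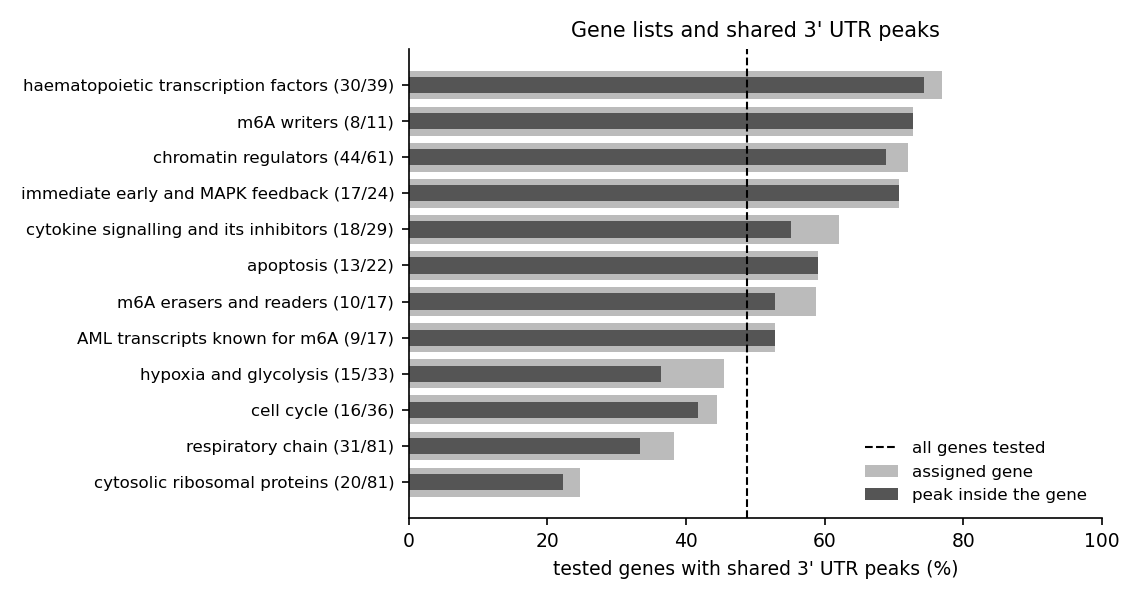
Share of tested genes with shared 3' UTR peaks (horizontal axis, %) in 12 gene lists, by assigned gene (light bars) and with the peak inside the gene (dark bars). Numbers are carriers over tested genes and the dashed line marks 48.8% of all tested genes. Haematopoietic transcription factors reach 76.9% and cytosolic ribosomal proteins 24.7%.

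Carriers were most frequent among genes of middle level. With mean FPKM over the 6 input libraries of 5 to 10, 53.6% of 2573 genes were carriers. At 100 FPKM or more 27.3% of 231 genes were, and at 1 to 2 FPKM 41.9% of 1881. Below 0.1 FPKM 10.4% of 9980 genes still counted as carriers, but 4.71% did so with the peak inside the gene. Among carriers with the peak inside, the median of the highest enrichment was 13.0 in the shWTAP list and 12.4 in the control list at 0.1 to 1 FPKM, 11.6 and 10.7 at 1 to 2 FPKM, 5.00 and 5.01 at 20 to 50 FPKM, and 3.41 and 3.46 at 100 FPKM or more. The order was not strict at the ends, since the medians were 12.5 and 12.4 below 0.1 FPKM and 3.54 and 3.20 at 50 to 100 FPKM. The input level enters the fold enrichment as its divisor, so the 2 scales are not independent.

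**Figure D4:**
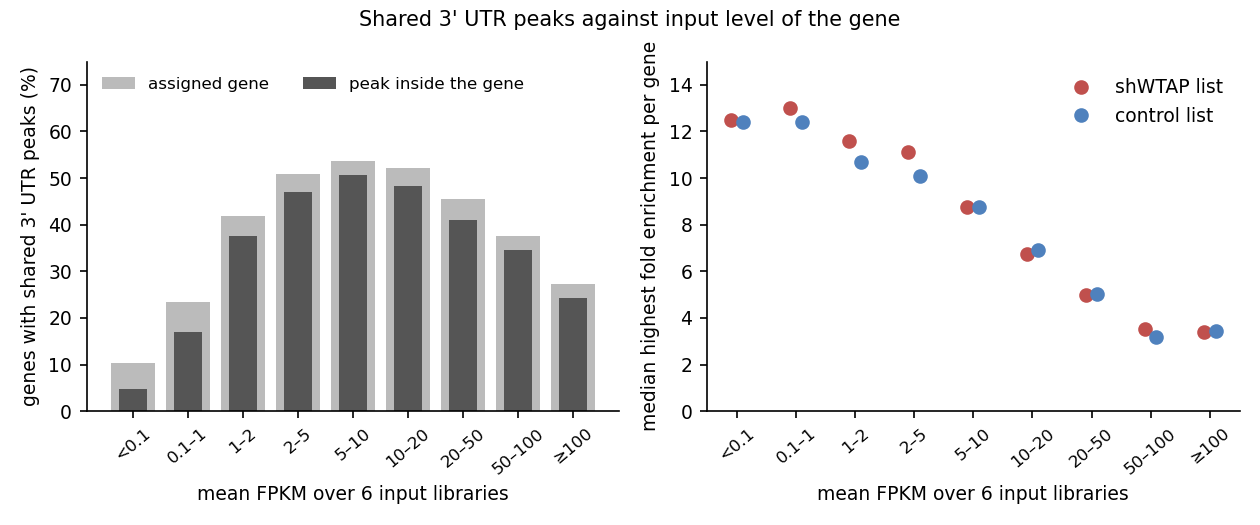
Left, share of genes with shared 3' UTR peaks (%) in bins of mean FPKM over the 6 input libraries, by assigned gene (light) and with the peak inside the gene (dark). Right, median over such genes with the peak inside of their highest fold enrichment in the shWTAP and control lists. The share peaks at 53.6% in the bin of 5 to 10 FPKM and the enrichment is lowest, 3.20 to 3.54, from 50 FPKM upward.

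The input libraries ask whether genes with shared 3' UTR peaks differed in RNA level between shWTAP and control cells. Of 8002 carriers in the FPKM table, 5551 reached 1 FPKM in at least 3 libraries and were tested, and 2451 did not. Of the 5551, 204 passed the threshold of an adjusted p under 0.05 in limma on log2(FPKM + 1), or 3.68%, beside 3.89% of all 11383 tested genes. In shWTAP cells 72 carriers rose (1.30%, beside 1.48% of all tested genes) and 132 fell (2.38%, beside 2.42%). The median log2 change was -0.024 among carriers and -0.025 over all tested genes. In bulk RNA, fewer cells of a type and less RNA per cell cannot be told apart. The groups did not overlap for 1622 carriers (29.2%), beside 28.2% of all tested genes. These shares are near the background, and no difference between carriers and the other tested genes was tested. With 3 against 3 libraries the exact two-sided permutation test of a single gene cannot go below p = 0.1. The counts depend on single libraries: without shWTAP 1, 478 carriers rose and 839 fell (23.7% called, beside 24.2% of all tested genes), and without any 1 of the other 5 libraries 7 to 16 rose and 9 to 16 fell.

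The share of called genes was not larger among carriers with the most or strongest peaks than among those with the fewest or weakest. This was not tested. Carriers with 1 shared 3' UTR peak in the control list were called in 3.95% of 3395 genes, those with 2 in 3.28% of 1403 and those with 3 or more in 3.19% of 753. By highest enrichment in the control list, 3.89% of the 1389 carriers with the lowest values (up to 4.21) and 3.75% of the 1387 with the highest (above 14.6) were called. By highest enrichment in the shWTAP list these shares were 4.09% of 1392 (up to 4.19) and 3.25% of 1384 (above 15.3). The medians of the log2 change lay between -0.035 and 0.004 across 4 such bins of the control list.

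The largest called rise among carriers with at least 5 FPKM in the higher group was in CEACAM6, a surface glycoprotein of granulocytes. It stood at 57.4, 63.7 and 67.1 FPKM in the shWTAP libraries and at 22.3, 23.1 and 23.8 FPKM in the control libraries. Every shWTAP library lay above every control library, with a log2 change of 1.40 (limma adjusted p = 4.5e-04). Its shared peak spanned chr19:41762198-41771136 in the shWTAP list, with a fold enrichment of 3.90, and chr19:41762198-41771286 in the control list, with 3.83. The peak of ARRDC3, an arrestin-related protein, had its lower edge at chr5:91370422 in both lists, with 11.4 (shWTAP) and 14.6 (control). ARRDC3 RNA stood at 11.2, 11.4 and 12.0 FPKM in the shWTAP libraries against 4.44, 5.68 and 6.39 FPKM in the control libraries (log2 change 0.96, limma adjusted p = 0.00977). The groups were well apart, by more than the range within either.

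The sterol synthesis enzymes MSMO1 and HMGCS1 were also among the 10 largest rises. HMGCS1 had 67.0, 65.1 and 67.9 FPKM in the shWTAP libraries and 36.0, 39.9 and 42.4 FPKM in the control libraries (log2 change 0.75, limma adjusted p = 0.00663). Its shared peak was weak, with a fold enrichment of 1.64 in the shWTAP list and 1.95 in the control list. ICAM3, a leukocyte adhesion molecule, had 21.8, 23.9 and 23.4 FPKM in the shWTAP libraries and 14.2, 13.9 and 12.1 FPKM in the control libraries. Its log2 change was 0.74 (limma adjusted p = 0.00687). The surface proteins CD52 and CD24 rose by 1.04 and 0.69 on the log2 scale (limma adjusted p = 0.0222 and 0.00687). C17orf58, BRD3OS and BST1 rose by 0.71, 0.70 and 0.64, and the peak assigned to BST1, an enzyme on the cell surface, did not lie wholly inside that gene.

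The largest called fall by the same rule was in NEK7, a mitotic kinase that also activates the NLRP3 inflammasome. It stood at 4.24, 2.98 and 3.05 FPKM in the shWTAP libraries against 10.1, 9.52 and 11.5 FPKM in the control libraries. The groups did not overlap, and the log2 change was -1.37 (limma adjusted p = 0.00518). Its shared peak lay 98.4% along the gene in both lists, at chr1:198319723-198319903 with a fold enrichment of 2.00 (shWTAP) and chr1:198319694-198319873 with 2.25 (control). AREL1, a ubiquitin ligase that restrains apoptosis, had 4.01, 3.52 and 3.34 FPKM in the shWTAP libraries and 7.79, 8.12 and 8.44 FPKM in the control libraries (log2 change -0.98, limma adjusted p = 0.00307). LRRC59, a ribosome-binding protein of the endoplasmic reticulum, had 44.0, 35.1 and 33.8 FPKM in the shWTAP libraries and 76.2, 75.3 and 75.4 FPKM in the control libraries. The mean fell to 0.498 of the control mean (limma adjusted p = 0.00663), and the gene overlaps another on its strand, so its FPKM is uncertain.

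JMJD8, GOLM1, MCFD2, TXNRD1, CCPG1, CD44 and RAB5A made up the rest of the 10 largest falls, by 0.68 to 1.05 on the log2 scale. CD44, a hyaluronan receptor of leukaemic stem cells, had 46.7, 37.5 and 37.4 FPKM in the shWTAP libraries against 66.0, 64.8 and 67.9 FPKM in the control libraries (log2 change -0.70, limma adjusted p = 0.0146). In CD44 the shWTAP 1 library lay nearest to the controls. TXNRD1, thioredoxin reductase, fell by 0.72 on the log2 scale, and its 181-base peak in the shWTAP list lay within the 301-base peak of the control list. TXNRD1, CCPG1 and CD44 overlap another gene on their strand. Of these 20 genes, 7 passed the threshold without each of the 6 libraries in turn: CEACAM6, HMGCS1, ICAM3, CD24, AREL1, LRRC59 and NEK7. The other 13 lost their call when at least 1 library was left out, with adjusted p up to 0.161 (CCPG1).

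**Figure D5:**
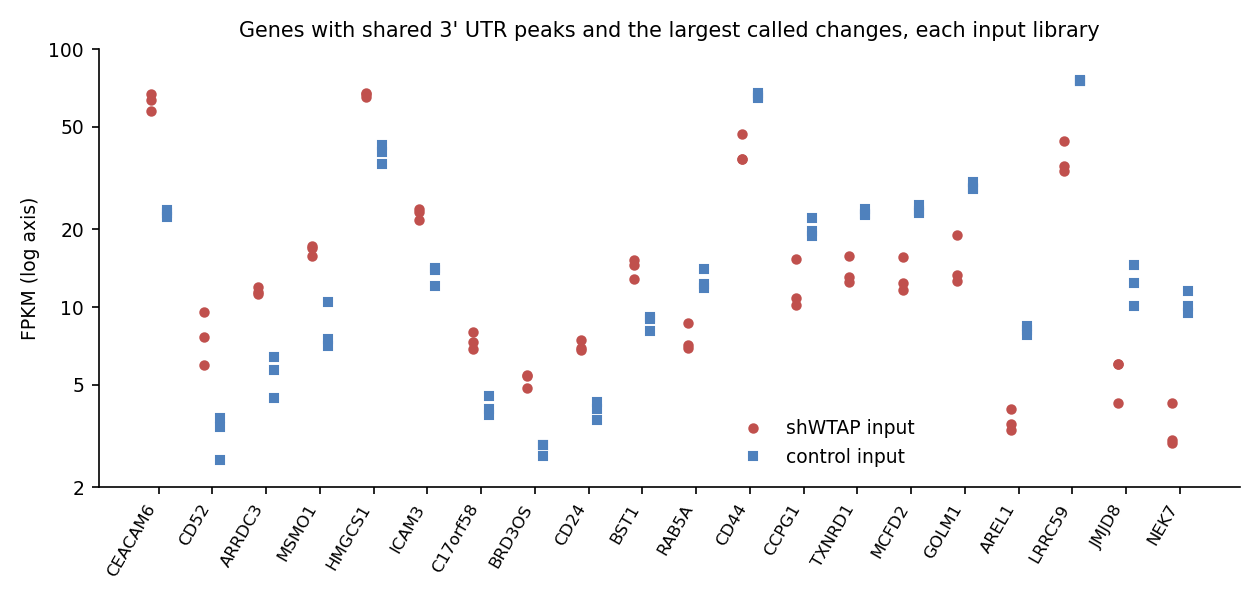
FPKM (vertical log axis) of the 10 carriers that rose most and the 10 that fell most in each input library, shWTAP as circles left of control as squares. For each gene the 3 shWTAP libraries lie wholly above or wholly below the 3 control libraries, as with CEACAM6 (57.4 to 67.1 against 22.3 to 23.8 FPKM).

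The called carriers of the gene lists are given beside a background of 3.89% of all tested genes called, 1.48% higher and 2.42% lower. These lists are small, and no list was tested against the background. Of the 8 writers among carriers none rose and RBM15 fell. RBM15 had 5.37, 4.56 and 4.67 FPKM in the shWTAP libraries and 6.73, 6.50 and 7.10 FPKM in the control libraries, a log2 change of -0.41 (limma adjusted p = 0.0397). RBM15B, its paralog, did not pass (log2 change 0.24, limma adjusted p = 0.109), nor did METTL14 (0.11, limma adjusted p = 0.558). No eraser or reader among 10 carriers passed in the reported limma fit. Only 1 had an unadjusted p under 0.05, a count made without a background over all tested genes. YTHDF1 stood at 19.0, 15.5 and 15.2 FPKM in the shWTAP libraries and 19.8, 19.2 and 21.6 FPKM in the control libraries. Its log2 change was -0.28 (limma adjusted p = 0.146). Without shWTAP 1, YTHDF1 and IGF2BP2 among these readers passed, both lower. YTHDF1 was also called lower with the level of mitochondrial mRNA as a block, where 17.0% of all tested genes were called.

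The histone demethylase KDM4B stood at 4.53, 5.71 and 6.21 FPKM in the shWTAP libraries and 5.14, 5.62 and 5.34 FPKM in the control libraries, which overlap.

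Among the 30 haematopoietic transcription factors that were carriers, 1 rose, 6 fell and 23 did not pass, so 23.3% were called, beside 3.89% of all tested genes. Their median log2 change was -0.03, beside -0.03 over all tested genes. CEBPE rose, with 6.98, 8.52 and 8.38 FPKM in the shWTAP libraries and 4.78, 5.79 and 4.78 FPKM in the control libraries (log2 change 0.55, limma adjusted p = 0.0357). FLI1, an ETS factor of stem and megakaryocytic cells, had 18.4, 17.4 and 17.8 FPKM in the shWTAP libraries and 24.0, 24.1 and 22.7 FPKM in the control libraries (log2 change -0.38, limma adjusted p = 0.0221). STAT5A, which relays cytokine signals, changed by -0.37 (limma adjusted p = 0.0272) and CEBPG by -0.47 (limma adjusted p = 0.0325), and LMO2, TCF12 and ZEB2 also fell. The peak of CEBPG had the same edges and the same 1462 exonic bases in both lists.

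Of the 18 cytokine signalling carriers, the kinase PIM1 rose by 0.44 on the log2 scale (limma adjusted p = 0.0367) and the phosphatase PTPN6 fell by 0.32 (limma adjusted p = 0.0452). Of the 16 cell cycle carriers, CCNG2 and CDKN1B, both tied to cell cycle arrest, rose by 0.42 and 0.38 (limma adjusted p = 0.0434 and 0.0470), and CDKN1B overlaps another gene on its strand. The CCNG2 peaks shared 31 bases, 11.5% of the shWTAP peak and 10.3% of the control peak. SETD7, a lysine methyltransferase with 7 shared 3' UTR peaks in the shWTAP list and 6 in the control list, fell by 0.50 (limma adjusted p = 0.0397). It was the only call in the reported fit among 44 chromatin regulators (2.27%). ARID1A and SIRT1 of that list also passed with median centring or a filter at 5 FPKM, both lower. Over all tested genes 5.82% and 7.08% were called in these fits. No carrier of the list passed with the replicate block or with no filter on low values. With the level of mitochondrial mRNA as a block 10 of the 44 were called lower and none higher. Of all 11383 tested genes, 1214 were called lower and 724 higher in that fit (17.0%). Of the SETD7 peaks in the shWTAP list, the strongest, with a fold enrichment of 23.2, lay 8.28% along the gene, and the 1 with 4.82 ended at the gene end. ATF3, a stress-induced factor, fell by 0.38 (limma adjusted p = 0.0313) and ITGA4 rose by 0.36 (limma adjusted p = 0.0498). COX6A1 and SDHA of the respiratory chain fell by 0.57 and 0.37 (limma adjusted p = 0.0134 and 0.0421), and both overlap another gene on their strand. None of the 13 apoptosis, 15 hypoxia and glycolysis or 20 ribosomal protein carriers passed in the reported limma fit. In that fit 3, 6 and 4 of them had an unadjusted p under 0.05. The same count was not made over all tested genes, so these counts have no background. With the level of mitochondrial mRNA as a block, CASP8, BNIP3, PFKFB4, SLC2A3 and RPL13 of these lists were called higher and RPS14 lower. The shWTAP and control peaks of RPS14 shared only 1 base. In the hypoxia and glycolysis list 12 of 15 carriers had a positive log2 change, with a median of 0.16, beside 5119 of all 11383 tested genes and a median of -0.03. In that list SLC2A3 was the 1 call with median centring, quantile normalization or a filter at 5 FPKM. Over all tested genes 5.82%, 5.90% and 7.08% were called in these fits. Without the genes that overlap another on their strand, BNIP3 and SLC2A3 passed among 8 carriers, beside 5.96% of all genes tested there. No carrier of the list passed with a pseudocount of 0.1, no filter on low values or the replicate block. None passed when 1 library other than shWTAP 1 was left out. Without shWTAP 1 and control 3 together, 9 of the 15 were called higher and HK1 and TPI1 lower. Of all 11383 tested genes, 1323 were called higher and 1819 lower in that fit (27.6%). TPI1 was a carrier by assignment, without shared peaks of both lists inside its span. BNIP3, a mitophagy receptor of that list, stood at 4.55, 6.47 and 6.76 FPKM in the shWTAP libraries and 3.61, 3.62 and 3.62 FPKM in the control libraries (log2 change 0.57, limma adjusted p = 0.0545). The groups of BNIP3 did not overlap. In the chromatin list 13 of 44 carriers had a positive log2 change, with a median of -0.08, beside the same 5119 of 11383. ERF, with the strongest peak inside its own gene in the shWTAP list, was at 10.2, 13.2 and 12.2 FPKM in the shWTAP libraries and 11.9, 11.8 and 9.25 FPKM in the control libraries, which overlap.

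The list calls depended on single libraries. The 17 called carriers of the 12 lists all passed without shWTAP 1, but 16 of them lost their call when any 1 of the other 5 libraries was left out, and COX6A1 passed without control 3 as well. The highest limma adjusted p over these repeats was 0.157 for CEBPE, 0.134 for FLI1, 0.141 for CEBPG, 0.157 for ATF3 and 0.200 for ITGA4. With the replicate number as a block COX6A1 was the 1 of them still called (limma adjusted p = 0.0439), and with no filter on low values FLI1 was. ITGA4 also lost its call with a pseudocount of 0.1, and LMO2 and SDHA lost theirs with median centring.

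Without shWTAP 1 the background was 24.2% of all tested genes called, 9.06% higher and 15.1% lower. In that fit 5 haematopoietic factors of 30 were called higher and 11 lower, and of 44 chromatin regulators 14 were called lower and none higher. Of the 15 hypoxia and glycolysis carriers 7 were called higher, BNIP3, ENO2, PFKFB3, PFKFB4, PGK1, SLC2A1 and SLC2A3, and none lower. The control peak assigned to ENO2 lay in LRRC23 and not wholly inside ENO2. RBM15B was called higher among the 8 writers, where RBM15 and ZC3H13 were called lower. Of the 20 ribosomal protein carriers 3 were called higher and 5 lower, and of 31 respiratory chain carriers 2 higher and 3 lower. The counts were 2 higher and 2 lower of 9 transcripts known for m6A control, 3 and 1 of 18 in cytokine signalling, 2 and 4 of 17 immediate early and MAPK feedback genes, and 2 and 3 of 16 in the cell cycle. PMAIP1 was the 1 call, lower, among 13 apoptosis carriers.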

How the data were processed

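The 12 libraries were 3 shWTAP IP, 3 control IP, 3 shWTAP input and 3 control input, grouped by their titles. The authors deposited 1 peak list per condition, with a p-value, log10 scores and a fold enrichment ratio for each peak, per the file headers. They also deposited FPKM values of the 6 input libraries. Tools credited in the submitters' processing notes, without role or version, were ChIPseeker, fastp, HISAT2 and HOMER. No source used here states the peak caller, the build, whether replicates were pooled or how strand entered the counting, although the labels' protocol marks the second strand with dUTP.

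Exonic blocks were intersected with 1 base as the minimum. Starts are 0-based in the lists and 1-based here. A gene was a carrier where shared 3' UTR peaks of both lists were assigned to it. Input FPKM entered the model as log2(FPKM + 1) for the 11383 genes that reached 1 FPKM in 3 or more libraries. Groups were compared (shWTAP minus control) by limma 3.58.1 under R 4.3.3 with a mean-variance trend in eBayes, and p-values were adjusted by Benjamini-Hochberg over all 11383 genes. The log scale understates changes of low genes. The fit was tested on simulated data. Genes were named by rule: the 10 largest called rises and falls without overlap and with 5 FPKM or more in the higher group, up to 4 per gene list by adjusted p, the 10 highest enrichments per list, the 5 genes with the most peaks, the peaks nearest the limit of the overlap rule and 6 fixed genes. Not every gene named by this rule is described, and 1 is not reported here. The peaks, lists and rules were chosen with earlier results of these data known. IP over input could not be tested per gene, since IP levels of single libraries are not analysed here, and no sequence is printed because no genome was used.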

Additional observations from a re-analysis of the deposited data

How the results depend on the processing

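The counts of shared 3' UTR peaks stayed within 1.5 times of those reported under every alternative tried: at least 50 bases shared, 50% of the bases shared, the same strand, the whole span, stricter p, enrichment or false discovery rate, a 3' UTR counterpart, and the peak inside its gene. The alternatives on false discovery rate and on the peak inside its gene were chosen after seeing the data. The proportion of 3' UTR peaks that were shared was highest with p at most 0.001, at 89.9% in the shWTAP list and 90.6% in the control list. Peaks that were both shared and inside their gene made up 62.2% of all 3' UTR peaks in the shWTAP list and 62.4% in the control list. The total there includes 3' UTR peaks not inside their gene. These 2 values are therefore not the proportion shared among peaks inside their gene.

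The counts of carriers called in the input fit, 72 higher and 132 lower, depended on the setting. They were 314 and 600 when the level of mitochondrial mRNA was a block, 613 and 873 without the libraries shWTAP 1 and control 3, and 13 and 17 with no filter on low values. Median centring gave 133 higher and quantile normalization 136 higher, with counts lower of 159 and 164. Leaving out 1 library gave 7 to 478 higher and 9 to 839 lower. The highest counts came without shWTAP 1, which was 1 of the libraries of high mitochondrial mRNA. Deviations of same-numbered libraries from their group means correlated at -0.106, 0.167 and -0.144. With 3 libraries per group these values cannot decide whether the replicate numbers pair the samples. The replicate block gave 12 higher and 15 lower, all 27 of them among the 204 called in the reported fit. The cause was not tested. Carriers beside all tested genes were called in 16.5% and 17.0% with the mitochondrial block, 23.7% and 24.2% without shWTAP 1, 0.486% and 0.676% with the replicate block, 0.324% and 0.448% without control 1, 0.288% and 0.404% without shWTAP 3, and 0.375% and 0.299% with no filter.

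Signs turned for genes close to 0, with none past the threshold: ERF without control 3 (range without 1 library -0.00 to 0.20), KDM4B without control 1, shWTAP 2 or shWTAP 3 (-0.06 to 0.13), MYC without control 3 or shWTAP 2 (-0.01 to 0.04) and without shWTAP 1 and control 3 together (-0.00), and NRDE2 without shWTAP 1 (-0.01 to 0.10). Of 1223 repeats over named genes, 950 kept direction and side of the threshold. Depth is unknown in FPKM, so a low gene without a call was not shown to be unchanged.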
